A study of Mus musculus with 3 samples.

Results

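The 10 genes described here are components and targets of the Notch pathway and 2 transcription factors of cochlear supporting cells. They are the receptors *Notch1*, *Notch2* and *Notch3*, the ligand *Jag1*, the Fringe enzyme *Lfng*, the target genes *Hes1*, *Hey1* and *Hey2*, and the factors *Sox2* and *Prox1*. They were chosen by name, and each symbol matched 1 of the 32285 genes in the files. Single-cell RNA was sequenced from cochleae of C57/B6 mice of both sexes at postnatal day 14 (P14, 1 library) and postnatal day 28 (P28, libraries 1 and 2, called replicates). Dissociated cells of 14 cochleae from 7 mice made up each library, so that a library is 1 pool. Values are counts of unique molecular identifiers (UMIs), each standing for 1 captured RNA molecule, added up for each cell class and library and given as CPM, counts per 1000000 UMIs of that sum.

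Notch signalling passes between cells that touch. A ligand on one cell binds a receptor on its neighbour, the receptor is cleaved, and its intracellular part joins the DNA-binding protein RBPJ to switch on genes of the Hes and Hey families, which repress other genes. Fringe enzymes add sugars to the receptor and change which ligands activate it. In the developing cochlea Notch signalling keeps supporting cells from becoming hair cells, *Jag1* and *Sox2* mark the prosensory region, and *Prox1* is a homeobox factor of Deiters' and pillar cells.

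Barcodes were kept with 200 to 6000 genes and at most 15% mitochondrial UMIs, which left 1662 of 2513 at P14 and 5649 of 11948 and 7065 of 18196 at P28, with medians of 2036 to 2475.5 UMIs. The mitochondrial limit alone was exceeded by 19.8% of barcodes at P14 and by 50.1% and 59.2% at P28. The 10 genes held 2626, 9712 and 7925 of the UMIs kept. Pairs of libraries shared 10 to 54 barcode sequences. Cells were clustered without these genes, and clusters were named from marker lists: outer and inner hair cells (OHC, IHC), Deiters' and pillar cells (DC/PC), inner phalangeal and border cells (IPhC/IB), sulcus and Hensen's cells (ISC/HeC/OSC), Reissner's membrane (RM), tympanic border cells (TBC), spiral ganglion neurons (SGN), Schwann and satellite glial cells (SC/SGC) and others. Each name carries "like" because it rests on markers. Clusters that no list named are called by a leading gene (Aqp4-led, Ucma-led and others). Further cells, 189 at P14 and 23 and 40 in the P28 libraries, got no name of either kind. These cells without a name were left out of the ranking of classes and of the comparison of ages. A class was used with at least 10 cells in a library, and 20 classes had that in 2 or more libraries.

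The classes beside the hair cells were small. DC/PC-like cells numbered 74 at P14 and 73 and 44 in the P28 libraries, and IPhC/IB-like cells 263 and 296 at P28. No cluster was named IPhC/IB-like, ISC/HeC/OSC-like or SGN-like at P14, and the markers of endothelial cells and pericytes named no cluster at either age. The 8 endothelial markers still summed to 3889 and 3528 CPM in TBC-like cells at P28. The 6 pericyte markers summed to 1573 CPM in Mog-led and 658 CPM in Moxd1-led cells at P14. Whether vascular cells lie within these classes was not tested. The DC/PC marker *Fgfr3* reached 253 CPM (P14) and 493 and 479 CPM (P28) in the class named for it, against 4.61 and 6.44 CPM in IPhC/IB-like cells. The 9 DC/PC markers summed to 4428 CPM (P14) and 6452 and 7316 CPM (P28) in DC/PC-like cells. This sum was not particular to them, at 10758 and 9092 CPM in Otoa-led and 6591 and 5244 CPM in Otos-led cells at P28. The IPhC/IB marker *Slc1a3* was at 1975 and 2070 CPM in IPhC/IB-like cells at P28. The DC/PC-like cells held it at 522 CPM at P14 and at 56.8 and 123 CPM at P28, so the P14 class differed from the P28 class in a marker of its neighbour. *Matn4*, another marker of that list, was at 3.16 CPM or less in both classes. A P14 cluster of 29 cells with Schwann cell markers was called Mog-led and given no cell type. *Mog*, a myelin gene of oligodendrocytes, was among its leading genes.

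Positions are those of GENCODE M21 on GRCm38, the assembly also called mm10, the build in the labels. *Lfng* lies on chromosome 5 at 140607320 to 140615545 on the plus strand, *Hey2* on chromosome 10 at 30832359 to 30842801 on the minus strand, and *Jag1* on chromosome 2 at 137081456 to 137116644 on the minus strand. *Sox2*, on chromosome 3 at 34650405 to 34652461 on the plus strand, lies within the long noncoding gene *Sox2ot* but shares no exon with it. An exon of *Notch2* overlaps one of *Gm42820* on the same strand, so reads there can be assigned to neither with certainty. Opposite-strand genes overlap *Notch1*, *Notch3* and *Prox1*.

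Promoter windows of 250 bases before the start, from RefSeq on GRCm38.p6, were given for 8 of the 10 genes. Starts are those of RefSeq. The letters TGGGAA, the core bound by RBPJ, occurred on either strand in windows of *Lfng*, *Hey2* and *Prox1*, 3 of 9 windows, and in 21.6% of all 32851 windows of that length. The letters CACGNG, bound by Hes and Hey proteins, occurred in windows of *Notch2*, *Notch3*, *Jag1* and *Lfng*, 4 of 9, against 23.5% of all windows. *Lfng* and *Hey2* are shown as examples that hold the RBPJ core. At P28 their levels divided DC/PC-like from IPhC/IB-like cells in opposite directions. *Prox1*, which also holds the core, divided these classes in the direction of *Hey2* and is not shown. A link between the motif and the levels was not tested. Matches to either motif are in capitals. In the *Lfng* window, matches to both motifs overlap, and TGGGAA matches begin 135 and 108 bases before the start. In the *Hey2* window the single match begins 207 bases before it.
*Lfng*, chr5:140607091-140607340, plus strand: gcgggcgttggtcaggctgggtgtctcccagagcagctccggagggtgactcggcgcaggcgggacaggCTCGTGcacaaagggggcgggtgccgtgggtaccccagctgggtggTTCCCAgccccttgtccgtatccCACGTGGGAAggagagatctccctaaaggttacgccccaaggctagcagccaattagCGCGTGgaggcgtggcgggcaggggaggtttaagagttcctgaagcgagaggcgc
*Hey2*, chr10:30842784-30843033, minus strand: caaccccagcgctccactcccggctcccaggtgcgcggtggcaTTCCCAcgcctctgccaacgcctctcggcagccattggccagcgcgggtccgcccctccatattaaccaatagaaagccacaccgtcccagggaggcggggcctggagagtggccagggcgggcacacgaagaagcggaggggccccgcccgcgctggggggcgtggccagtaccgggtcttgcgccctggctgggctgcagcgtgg

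Across the 20 classes the receptors had different leading classes. *Notch1* was at 201, 163 and 157 CPM in Aqp4-led cells (P14 and the P28 libraries), a mean of 174 ± 24.2 CPM (SD, n = 3). IPhC/IB-like cells followed at 125 ± 4.95 CPM (n = 2) and ISC/HeC/OSC-like cells at 122 ± 5.34 CPM (n = 2), whose ranges overlapped each other but not that of Aqp4-led cells. *Notch1* was lowest in SGN-like cells, at 5.88 ± 1.28 CPM (n = 2). *Notch2* was at 95.02, 150 and 143 CPM in RM-like cells. Its mean was higher in granulocyte-like cells, at 211 ± 148 CPM (n = 2), but this rested on 10 and 14 UMIs, and the ranges of both classes overlapped. *Notch3* was at 41.98, 50.8 and 48.7 CPM in Aqp4-led cells, and the next class, Moxd1-led cells, ranged from 2.49 to 39.7 CPM. The 39.7 CPM, at P14, rested on 7 UMIs. Its 95% Poisson interval of 16.0 to 81.8 CPM overlapped that of Aqp4-led cells at P14, 28.3 to 59.9 CPM. *Notch1* and *Notch3* thus had their highest class means in the cells led by *Aqp4*, a water channel gene, while the leading classes of *Notch2* were not separated.

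*Jag1* and *Lfng* were highest in the organ of Corti. *Jag1* in DC/PC-like cells was at 283 CPM (P14) and 954 and 563 CPM (P28), a range that contained the 418 and 484 CPM of IPhC/IB-like cells. The next of the 20 classes, IHC-like cells, ranged from 43.6 to 187 CPM, below the range of IPhC/IB-like cells. The cells without a name, not ranked, held *Jag1* at 6.06 CPM at P14 and at 211 and 210 CPM at P28. *Lfng* was at 213 and 218 CPM in IPhC/IB-like cells, whereas DC/PC-like cells held 253 CPM at P14 against 44.2 and 45.3 CPM at P28. IHC-like cells held *Lfng* at 71.3, 81.5 and 87.5 CPM. All others of the 20 classes were lower, with macrophage-like cells between 24.9 and 30.9 CPM. The cells without a name held *Lfng* at 6.06 CPM at P14 and at 91.9 and 111 CPM at P28, on 3, 10 and 17 UMIs.

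The target genes *Hes1*, *Hey1* and *Hey2* had 3 different leading classes. *Hes1* was at 343 and 397 CPM in IPhC/IB-like cells, outside the range of DC/PC-like cells at 142 to 167 CPM. DC/PC-like, ISC/HeC/OSC-like and Aqp4-led cells overlapped in *Hes1*, with means of 157 ± 13.2 (n = 3), 147 ± 5.27 (n = 2) and 135 ± 31.3 CPM (n = 3). *Hey1* was at 248, 307 and 299 CPM in Aqp4-led cells and at 112 and 84.6 CPM in ISC/HeC/OSC-like cells, with no overlap. *Hey2* was at 297 and 256 CPM in SC/SGC-like cells at P28, resting on 47 and 22 UMIs. Aqp4-led cells held *Hey2* at 139, 202 and 234 CPM, and DC/PC-like cells at 51.0, 94.7 and 97.0 CPM.

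*Sox2*, a factor of progenitors, supporting cells and glia, was at 413 and 450 CPM in IPhC/IB-like cells, above every other class. Aqp4-led cells ranged from 193 to 313 CPM, DC/PC-like cells from 201 to 256 CPM and SC/SGC-like cells from 209 to 210 CPM, and these ranges overlapped. In OHC-like cells *Sox2* was at 5.86, 20.5 and 11.5 CPM. *Prox1* was led by SGN-like cells, at 218 and 246 CPM at P28. DC/PC-like cells were the only other class above 10 CPM in every library, at 46.4, 63.2 and 45.3 CPM, while IPhC/IB-like cells were at 2.30 and 1.07 CPM. DC/PC-like cells thus held all 3 of *Jag1*, *Sox2* and *Prox1*, and IPhC/IB-like cells held *Jag1* and *Sox2* with *Prox1* near 0.

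**Figure D1:**
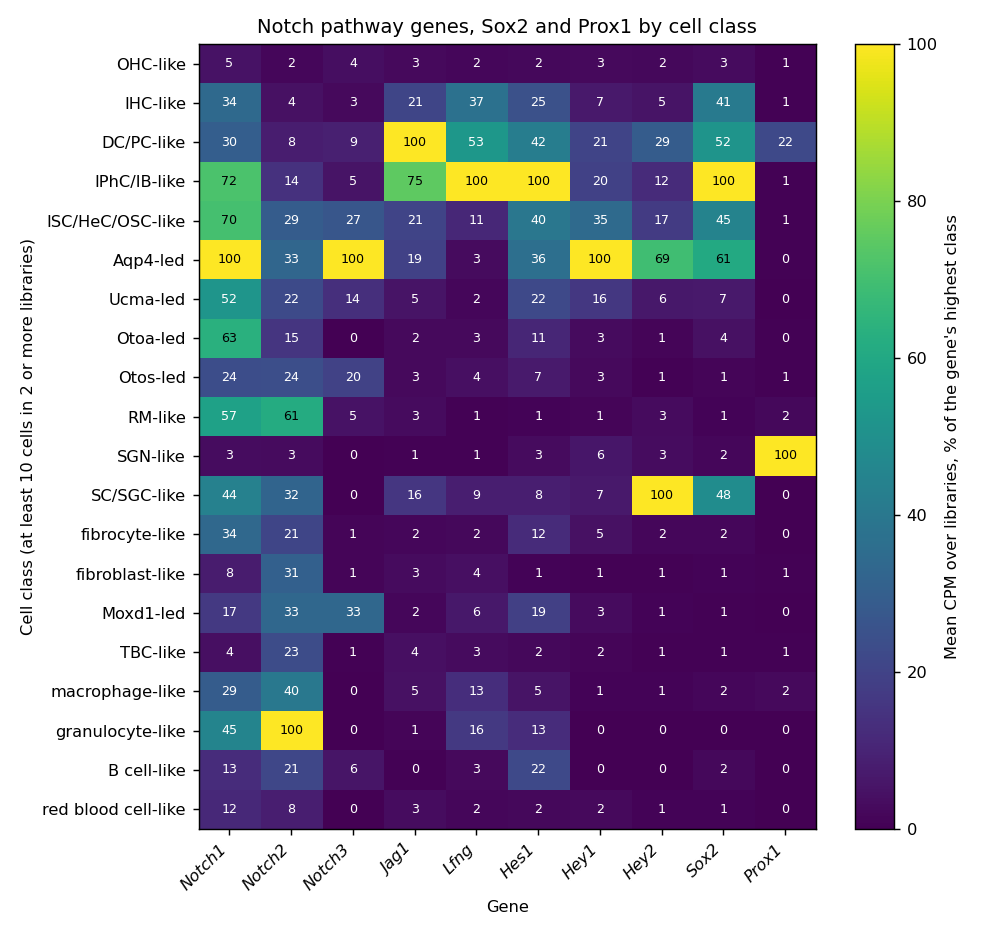
Mean CPM of each gene in 20 cell classes, as a percentage of the gene's own highest class mean (colour and printed number). *Hes1*, *Lfng* and *Sox2* peaked in IPhC/IB-like cells, *Notch1*, *Notch3* and *Hey1* in Aqp4-led cells, and *Prox1* in SGN-like cells.

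**Figure D2:**
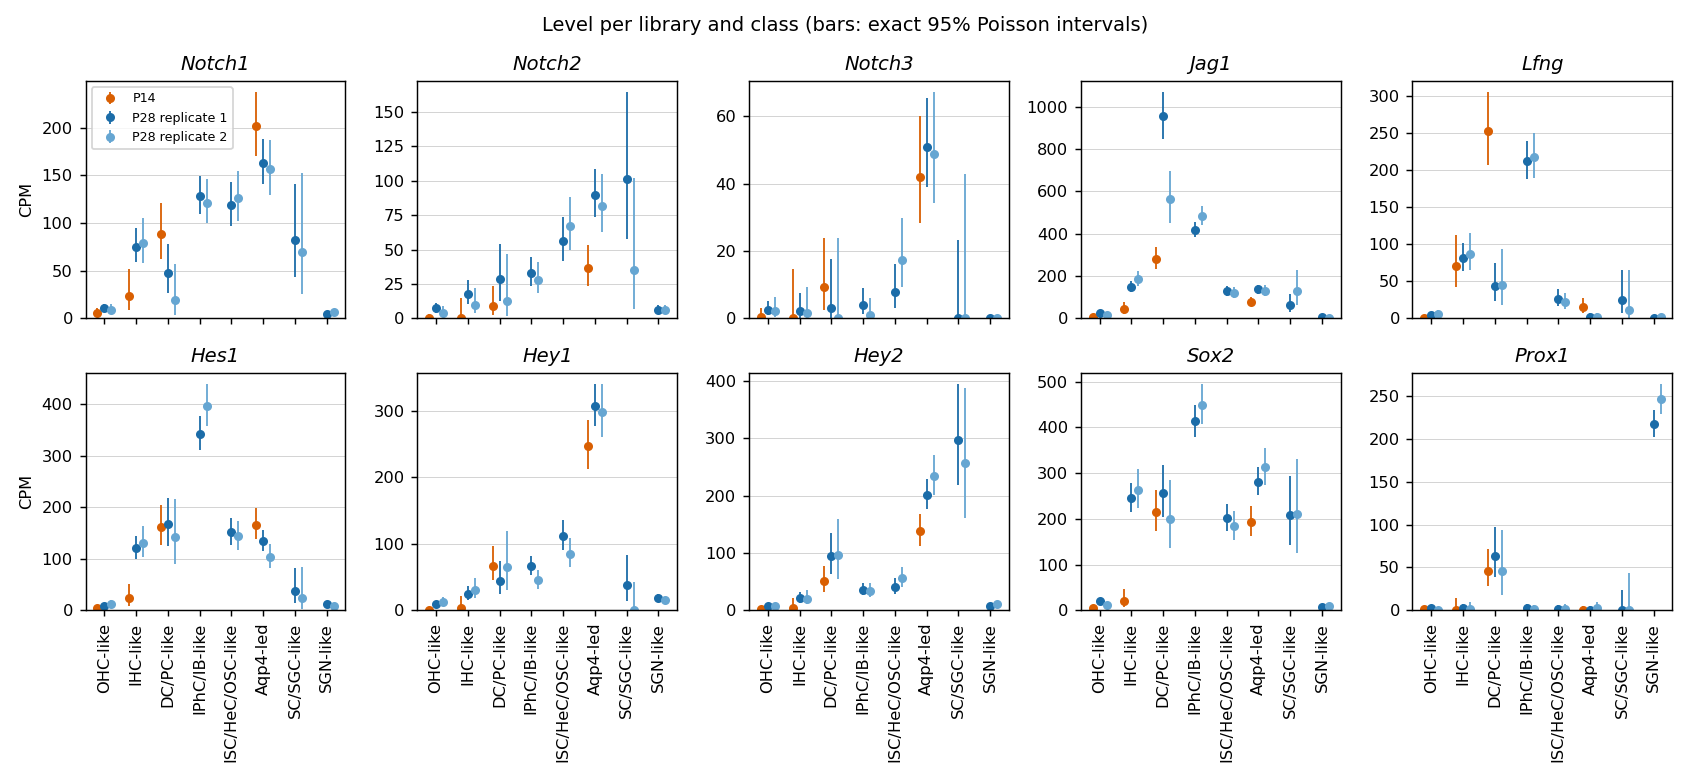
CPM of each gene in 8 classes (x axis), 1 point per library, with exact Poisson intervals of 95% that cover counting error only. *Lfng* in DC/PC-like cells was at 253 CPM at P14 and at 44.2 and 45.3 CPM at P28, and *Sox2* in IHC-like cells at 19.8 CPM at P14 and at 246 and 264 CPM at P28.

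Hair cells were compared with the organ of Corti supporting cells, with OHC-like and IHC-like cells summed on one side and DC/PC-like and IPhC/IB-like cells on the other. At P14 the supporting side was the 74 DC/PC-like cells alone. At P28 IPhC/IB-like cells made up 263 of its 336 and 296 of its 340 cells, so the libraries compare different mixtures. The 9 members tested were lower in hair cells. *Sox2* was at 7.52, 83.5 and 87.0 CPM in hair cells (P14 and the P28 libraries) against 216, 382 and 414 CPM in supporting cells, and the sides did not overlap. At P28 IHC-like cells held 238 of the 289 and 157 of the 173 *Sox2* UMIs of the hair cells. The fitted log2 fold change was -2.95 ± 0.43 (SE; adjusted p = 0.00177, edgeR quasi-likelihood test with Benjamini-Hochberg adjustment, library as a block). *Jag1* was at 9.40, 60.4 and 66.4 CPM against 283, 523 and 495 CPM, a log2 fold change of -3.60 ± 0.35 (edgeR adjusted p = 0.000348). *Hes1* was at 6.11, 39.6 and 47.8 CPM against 162, 309 and 361 CPM, a log2 fold change of -3.45 ± 0.31 (edgeR adjusted p = 0.000271).

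Of the 10 genes, 9 passed the filter on low counts in this comparison, and all 9 were lower in hair cells at an adjusted p of at most 0.05, where 25.1% of the 10761 genes tested were lower. Their median log2 fold change was -2.95, and that of all genes tested was -0.03. The remaining 6 called genes ranged from -2.14 ± 0.37 for *Notch2* to -3.55 ± 0.60 for *Prox1*. A gene can pass the filter through its higher side alone, here and in the comparisons below. So the counts and medians of genes tested leave out genes that were low on both sides. *Prox1* rested on 2, 9 and 2 UMIs in hair cells, against 20, 23 and 8 in supporting cells. *Notch3* was not tested, at 0.470, 2.31 and 2.01 CPM in hair cells and 9.27, 3.71 and 0.920 CPM in supporting cells. With at least 10 UMIs required in every sum, only 5 were tested, and all 5 were called. The share of all genes called under that filter is not given, so this count has nothing to be weighed against.

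OHC-like and IHC-like cells differed in these genes as well. OHC-like cells held *Lfng* at 0.533, 4.82 and 5.74 CPM and IHC-like cells at 71.3, 81.5 and 87.5 CPM, a log2 fold change of -4.23 ± 0.36 (edgeR adjusted p = 2.13e-05). *Sox2* was at 5.86, 20.5 and 11.5 CPM against 19.8, 246 and 264 CPM, a log2 fold change of -3.56 ± 0.30 (edgeR adjusted p = 2.03e-05). The OHC-like range of *Sox2* reached past the P14 value of IHC-like cells, whereas that of *Lfng* stayed below all IHC-like values. All 6 genes tested, *Notch1*, *Jag1*, *Lfng*, *Hes1*, *Hey1* and *Sox2*, were lower in OHC-like cells, where 17.1% of 9484 genes tested were lower. Their median log2 fold change was -3.11, and that of all genes tested was 0.05. *Hey1* rested on 1, 24 and 18 UMIs in either class, and its log2 fold change of -1.19 ± 0.36 (edgeR adjusted p = 0.0278) lost the call without P28 replicate 1 (adjusted p = 0.283), without P28 replicate 2 (0.192), without the library block (0.283) and with DESeq2 (0.241). The other 4 genes, *Notch2*, *Notch3*, *Hey2* and *Prox1*, were not tested. *Lfng* rested on 1, 12 and 8 UMIs in OHC-like cells against 18, 79 and 52 in IHC-like cells. It could thus pass the filter on low counts through the IHC-like side alone.

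Markers of IPhC/IB moved with these values in the summed classes, though not in every cluster. The 6 markers, of which 1, 1 and 0 were at 0 in IHC-like cells, summed to 1260 CPM in IHC-like cells at P14 and to 3370 and 2995 CPM at P28, against 6017 and 5783 CPM in IPhC/IB-like cells and 504 to 775 CPM in OHC-like cells. This sum was not particular to IPhC/IB-like cells, since Ucma-led cells held 15946, 9356 and 8248 CPM, Aqp4-led cells 14211, 5816 and 5550 CPM and ISC/HeC/OSC-like cells 7225 and 6499 CPM. *Slc1a3*, a glutamate transporter of inner phalangeal cells, was at 194 CPM in IHC-like cells at P14 and at 895 and 797 CPM at P28, while OHC-like cells had 1.60 to 74.6 CPM. At P28, IHC-like cells held 9.11 and 10.97 UMIs of *Lfng* for each 100 UMIs of *Slc1a3*, and IPhC/IB-like cells held 10.8 and 10.5. For *Jag1* these were 16.6 and 23.4 against 21.2 and 23.4, for *Hes1* 13.5 and 16.5 against 17.4 and 19.2, and for *Sox2* 27.5 and 33.1 against 20.9 and 21.7. At P14 *Lfng* stood at 36.7 per 100 *Slc1a3* UMIs in IHC-like cells and *Sox2* at 10.2, on counts of 18 and 5 UMIs. The part of IPhC/IB RNA in the IHC-like values was not tested.

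Within the IHC-like cells of P28 replicate 1, a cluster of 85 cells with a median of 10703 UMIs held *Sox2* at 255 CPM, and a cluster of 28 cells with a median of 1012.5 UMIs held 1 UMI of *Jag1* and none of *Sox2* or *Lfng*, which allows up to 106 CPM by the exact Poisson interval. The IPhC/IB markers summed to 3433 CPM in the first cluster and to 1666 CPM in the second. Among OHC-like cells of P14, a cluster of 37 cells with a median of 1129 UMIs held these markers at 2690 CPM. It held no UMI of *Sox2*, *Jag1* or *Lfng*, which allows up to 59.8 CPM of each. The OHC-like clusters of 190 and 50 cells at P14 held the markers at 383 and 534 CPM. At P28, 59.3% and 63.2% of IHC-like cells and 5.99% and 4.21% of OHC-like cells carried a *Sox2* UMI, at median depths of 9310 and 8007.5 against 5251 and 3754 UMIs. Thinned to 1000 UMIs per cell, with 14 and 4 IHC-like and 2 and 0 OHC-like cells left out as shallower, these shares were 21.2% and 15.3% against 1.64% and 0.702%. At P14 the thinned share was 0% of 31 IHC-like cells, which allows up to 9.68% of cells with a UMI at this depth and sets no limit on cells that express the gene, with 29 left out, and 0.769% of 260 OHC-like cells.

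**Figure D3:**
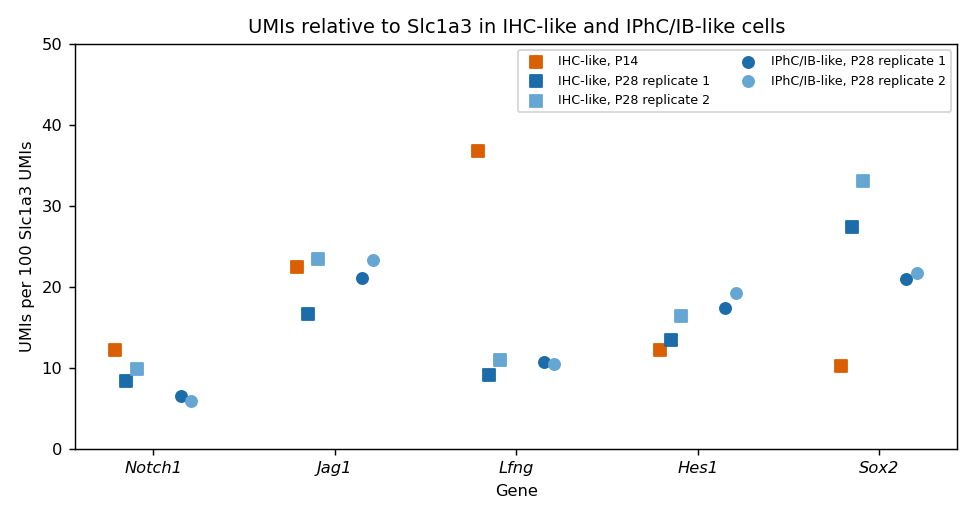
UMIs of 5 genes per 100 *Slc1a3* UMIs (y axis) in IHC-like cells (squares) and IPhC/IB-like cells (circles), 1 point per library. At P28 *Lfng* and *Hes1* stood at 9.11 to 16.5 in IHC-like and 10.5 to 19.2 in IPhC/IB-like cells, and *Sox2* at 27.5 and 33.1 against 20.9 and 21.7.

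The lateral and medial supporting cells, DC/PC-like and IPhC/IB-like, were compared in the 2 P28 libraries. With 1 residual degree of freedom, edgeR took the spread in this and the next comparison wholly from all genes together (infinite prior degrees of freedom), so their adjusted p-values do not measure each gene's own spread between the pools. *Prox1* was at 63.2 and 45.3 CPM against 2.30 and 1.07 CPM, a log2 fold change of 4.90 ± 0.62 (edgeR adjusted p = 1.91e-13) on 20 and 7 UMIs against 3 and 1. *Hey2* was at 94.7 and 97.0 CPM against 35.3 and 33.3 CPM, a log2 fold change of 1.55 ± 0.34 (edgeR adjusted p = 6.23e-05). *Jag1* was higher in DC/PC-like cells as well, by 0.85 ± 0.15 on the log2 scale (edgeR adjusted p = 1.09e-07), although P28 replicate 2, at 563 against 484 CPM, showed a smaller difference than P28 replicate 1. *Lfng* ran the other way, at 44.2 and 45.3 CPM against 213 and 218 CPM, a log2 fold change of -2.18 ± 0.28 (edgeR adjusted p = 4.84e-13). *Hes1* had a log2 fold change of -1.12 ± 0.19 (edgeR adjusted p = 1.74e-07), *Notch1* of -1.65 ± 0.33 (adjusted p = 1.01e-05) and *Sox2* of -0.79 ± 0.18 (adjusted p = 0.000115).

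In all, 3 of 9 genes tested were higher in DC/PC-like cells, where 8.66% of the 7822 genes tested were higher, and 4 were lower, where 8.28% were lower. *Hey1* (log2 fold change -0.09 ± 0.37, edgeR adjusted p = 0.928) and *Notch2* (-0.36 ± 0.50, adjusted p = 0.726) did not pass. With DESeq2 the calls of *Jag1* (adjusted p = 0.102), *Hey2* (0.318), *Notch1* (0.157) and *Sox2* (0.186) were lost. With clusters at a resolution of 2, a P14 cluster of 33 cells also took the IPhC/IB name, and then *Prox1* alone kept its call (edgeR, with 50 of all genes higher and 21 lower). That P14 cluster held *Slc1a3* at 93.7 CPM and *Lfng* at 2.40 CPM, against 525 and 247 CPM in the P14 DC/PC-like cells. It held *Hey1* at 298 CPM and *Jag1* at 57.7 CPM. IPhC/IB-like cells at P28 held *Hey1* at 66.1 and 45.1 CPM and *Jag1* at 418 and 484 CPM. At a resolution of 1, Aqp4-led cells of P14 held *Hey1* at 248 CPM and *Jag1* at 77.0 CPM. The part of this cluster in the lost calls was not tested. With barcodes of up to 30% mitochondrial UMIs a like P14 cluster of 35 cells entered, and none of the 7 genes kept its call.

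Organ of Corti supporting cells were set against ISC/HeC/OSC-like cells, the epithelium further from the hair cells, in the P28 libraries. *Jag1*, *Lfng*, *Hes1* and *Sox2* were higher in the summed organ of Corti classes. *Lfng* was at 180 and 193 CPM against 26.9 and 21.5 CPM, a log2 fold change of 2.79 ± 0.18 (edgeR adjusted p = 1.33e-49). *Jag1* was at 523 and 495 CPM against 128 and 120 CPM (1.91 ± 0.12, adjusted p = 9.93e-55). *Hes1* was higher by 1.03 ± 0.11 (edgeR adjusted p = 4.94e-18), with 343 and 397 CPM in IPhC/IB-like cells but 167 and 142 CPM in DC/PC-like cells against 151 and 144 CPM in ISC/HeC/OSC-like cells. *Sox2* was higher by 0.90 ± 0.11 (edgeR adjusted p = 1.49e-14). It was at 413 and 450 CPM in IPhC/IB-like cells, but at 256 and 201 CPM in DC/PC-like against 202 and 184 CPM in ISC/HeC/OSC-like cells. For *Lfng*, DC/PC-like cells were at 44.2 and 45.3 CPM. Most cells of the summed side were IPhC/IB-like. *Hey1*, at 61.8 and 47.9 CPM against 112 and 84.6 CPM, was lower (-0.98 ± 0.16, edgeR adjusted p = 3.95e-08), and so was *Notch2* (-1.18 ± 0.23, adjusted p = 3.28e-06).

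Thus 4 of 8 genes tested were higher in the organ of Corti classes, where 15.2% of 9305 genes tested were higher, and 2 were lower, where 15.7% were lower. *Notch1* (-0.29 ± 0.14, edgeR adjusted p = 0.101) and *Hey2* (-0.21 ± 0.22, adjusted p = 0.524) did not pass. The sum joined unlike classes here. *Hey2* was at 94.7 and 97.0 CPM in DC/PC-like and 35.3 and 33.3 CPM in IPhC/IB-like cells, against 40.3 and 56.4 CPM. *Notch1* was at 47.4 and 19.4 CPM and at 128 and 121 CPM, against 119 and 126 CPM. *Notch1* passed with a resolution of 2 (edgeR adjusted p = 0.0493), with the limit of 30% mitochondrial UMIs (0.00114) and without the top doublet scores (0.037). With DESeq2 neither *Hey1* (adjusted p = 0.122) nor *Notch2* (0.152) was called.

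The supporting epithelium, DC/PC-like, IPhC/IB-like and ISC/HeC/OSC-like cells together, was compared with all other cells that were not hair cells. That other side included Aqp4-led and Ucma-led cells and the cells without a name. *Lfng* was at 253, 125 and 123 CPM against 9.65, 5.96 and 6.98 CPM, a log2 fold change of 4.42 ± 0.18 (edgeR adjusted p = 0.00161). *Jag1* was at 283, 382 and 342 CPM against 23.0, 29.6 and 24.4 CPM (3.73 ± 0.15, adjusted p = 0.00161), and *Sox2* at 216, 318 and 321 CPM against 46.8, 27.2 and 21.6 CPM (3.27 ± 0.40, adjusted p = 0.00585). *Hes1* (2.56 ± 0.65, edgeR adjusted p = 0.0424) and *Hey2* (1.22 ± 0.22, adjusted p = 0.0157) were higher too, but both lost the call without P28 replicate 1 (adjusted p = 0.205 and 0.157) and without P28 replicate 2 (0.0772 and 0.135). So 5 of 10 genes were higher, where 10.2% of 12730 genes tested were higher, and 0 were lower by edgeR, at an unadjusted p under 0.05 too, and by DESeq2, where 16.8% were lower.

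The receptors, *Hey1* and *Prox1* did not pass in this comparison. Aqp4-led cells, with the highest class means of *Notch1*, *Notch3* and *Hey1*, were on the other side. *Notch1* was at 88.1, 115 and 115 CPM against 88.3, 40.2 and 37.9 CPM (log2 fold change 1.13 ± 0.38, edgeR adjusted p = 0.0874). *Prox1*, at 46.4, 9.56 and 4.92 CPM against 1.44, 41.2 and 42.2 CPM, turned direction between the ages (-1.08 ± 1.33, edgeR adjusted p = 0.605), and SGN-like cells were on the other side only at P28. The P14 side held DC/PC-like cells alone. Without the P14 library, 8 of the 10 genes were higher and 1 was lower, but 25.1% of all genes tested were then higher and 31.8% lower. With Aqp4-led and Ucma-led cells counted as supporting epithelium, an alternative chosen after the data were seen, 8 were higher (2823 of all genes higher). Among them were *Hey1* (log2 fold change 4.05) and *Notch3* (3.73), whose highest class means were in Aqp4-led cells. Moving that class set their direction beforehand, so these values add no support.

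**Figure D4:**
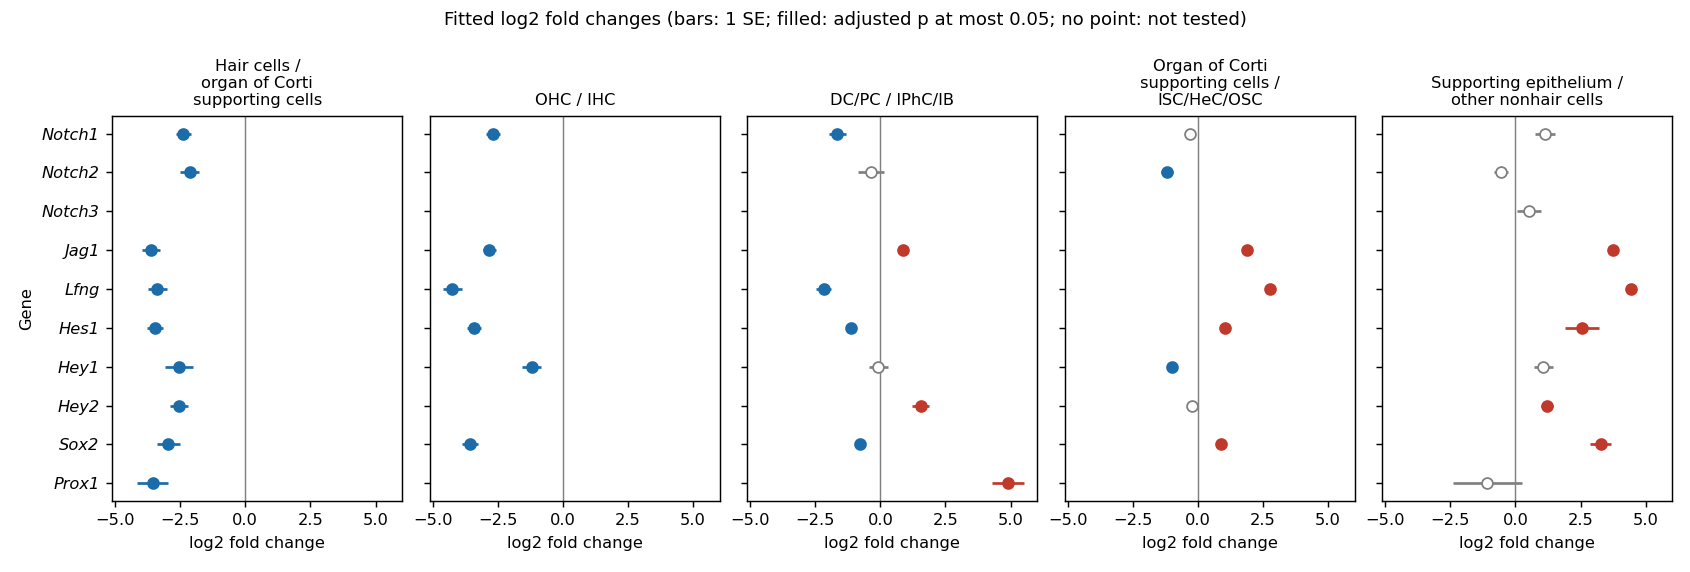
Fitted log2 fold changes with 1 SE (x axis) of the 10 genes in the 5 comparisons, each named first side over second side; filled points had an adjusted p of at most 0.05. *Lfng* was at -3.38 in hair cells against supporting cells and at 4.42 in the supporting epithelium against other cells, while *Prox1* stood at 4.90 in DC/PC-like against IPhC/IB-like cells.

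The comparisons of classes share cells, since OHC-like, IHC-like, DC/PC-like and IPhC/IB-like cells each entered more than 1 of them. The ages were not tested, since the 1 library at P14 gave no spread of its own. A P14 level was called outside the P28 levels where its exact 95% Poisson interval overlapped neither P28 interval. Of 100 pairs of gene and class with cells at both ages, 13 were lower at P14, 6 were higher and 81 overlapped. Of all genes at 50 CPM or more, between 2.99% and 22.7% were lower at P14 in a class. Between 3.83% and 56.8% were higher, so the counts of pairs alone do not mark these genes out. The intervals cover counting error only, and age cannot be told apart from library.

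In DC/PC-like cells *Jag1* was lower at P14, at 283 CPM (235 to 338) against 954 (849 to 1068) and 563 CPM (451 to 694), where 5.36% of genes at 50 CPM or more were lower. *Lfng* was higher at P14, at 253 CPM (207 to 305) against 44.2 (24.2 to 74.2) and 45.3 CPM (18.2 to 93.3), where 8.96% were higher. The other 8 genes overlapped, *Sox2* and *Prox1* among them. *Slc1a3* moved with *Lfng* in this class, at 522 CPM at P14 against 56.8 and 123 CPM, and the DC/PC markers *Fgfr3*, at 253 CPM against 493 and 479 CPM, and *Ceacam16*, at 1922 CPM against 4121 and 5913 CPM, moved with *Jag1*. *Tectb*, of the same list, went the other way, at 1328 CPM against 973 and 220 CPM. Their part in the difference was not tested.

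In IHC-like cells 4 genes were lower at P14, where 12.0% of genes at 50 CPM or more were lower. *Sox2* was at 19.8 CPM (6.43 to 46.2) at P14 and at 246 (215 to 279) and 264 CPM (224 to 309) at P28. *Jag1* was at 43.6 CPM against 149 and 187 CPM, *Hes1* at 23.8 CPM against 121 and 131 CPM, and *Notch1* at 23.8 CPM against 75.3 and 79.0 CPM. *Lfng* overlapped, at 71.3 CPM against 81.5 and 87.5 CPM. The IPhC/IB markers given above moved with the 4 genes that were lower, and the P14 cells had a median of 1025.5 UMIs against 9310 and 8007.5.

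In Aqp4-led cells *Notch2*, *Jag1*, *Hey2* and *Sox2* were lower at P14, where 10.6% of genes at 50 CPM or more were lower. *Notch2* was at 36.4 CPM against 89.99 and 81.5 CPM, *Jag1* at 77.0 CPM against 137 and 132 CPM, *Hey2* at 139 CPM against 202 and 234 CPM, and *Sox2* at 193 CPM against 281 and 313 CPM. *Lfng* was higher at P14, at 15.4 CPM against 2.50 and 1.32 CPM. Of genes at 50 CPM or more, a level *Lfng* did not reach there, 18.4% were higher. *Notch1*, *Notch3* and *Hey1*, the genes that led in this class, overlapped between the ages.

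In OHC-like cells *Jag1*, at 4.80 CPM against 26.1 and 15.1 CPM, and *Hey1*, at 0.533 CPM against 9.63 and 12.9 CPM, were lower at P14. Of genes at 50 CPM or more, a level neither gene reached there, 22.7% were lower. In Ucma-led cells *Notch1*, *Hes1* and *Hey1* were higher at P14, where 31.0% of genes at 50 CPM or more were higher. *Notch2* was lower at 24.7 CPM against 71.0 and 45.5 CPM, where 16.1% were lower. *Hes1* was at 120 CPM in these cells at P14 and at 59.7 and 66.7 CPM at P28. *Hes1* was also higher at P14 in B cell-like cells, at 189 CPM (120 to 284) against 10.9 (0.275 to 60.6) and 44.8 CPM (16.4 to 97.5). This class was small, with 66 cells at P14 and 27 and 40 at P28. Of genes at 50 CPM or more, 3.83% were higher there and 2.99% lower. *Jag1* was at 0 CPM (up to 19.0) in macrophage-like cells of P14 and at 31.8 and 49.3 CPM at P28. There 8.72% of genes at 50 CPM or more were lower, a level *Jag1* did not reach. All 10 genes overlapped in Moxd1-led, RM-like and red blood cell-like cells. Of genes at 50 CPM or more, 6.16% were lower and 5.56% higher in Moxd1-led cells, and 4.17% and 6.34% in RM-like cells. In red blood cell-like cells these shares were 6.24% and 56.8%. The 10 genes reached at most 33.5 CPM there, so these shares do not cover them.

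The other genes of the pathway were taken from 5 lists of 53 genes in all. Among the other receptors, ligands and Fringe enzymes, 3 of 10 were tested between hair cells and organ of Corti supporting cells, and all 3 were higher in hair cells, where 21.1% of genes tested were higher. They were *Dner* (log2 fold change 6.55 ± 0.24, edgeR adjusted p = 5.67e-05), a transmembrane protein proposed as a Notch ligand, the ligand *Jag2* (4.85 ± 0.47, adjusted p = 0.000376) and the Fringe enzyme *Rfng* (1.10 ± 0.33, adjusted p = 0.0296). OHC-like cells held *Dner* at 466, 611 and 653 CPM, above the 23.8, 86.7 and 85.8 CPM of IHC-like cells (3.24 ± 0.23, edgeR adjusted p = 7.54e-06), where 16.8% of genes were higher. For *Jag2*, the 34.6, 77.1 and 78.9 CPM of OHC-like cells overlapped the 35.7, 69.1 and 35.3 CPM of IHC-like cells. The ligand *Jag1* was thus lower, and *Jag2* and *Dner* higher, in the hair cells. *Dlk2* was lower in OHC-like than in IHC-like cells (-4.87 ± 0.62, edgeR adjusted p = 0.000257), and *Notch4* (-1.77 ± 0.38, adjusted p = 0.0258) and *Dner* (-4.06 ± 0.29, adjusted p = 0.0023) were lower in the supporting epithelium than in other cells. *Mfng* had its highest mean in macrophage-like cells, at 41.1, 37.3 and 24.0 CPM.

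Of the other Hes and Hey genes, *Heyl* was highest in IPhC/IB-like cells, at 296 and 276 CPM. It was lower in hair cells than in organ of Corti supporting cells (-2.04 ± 0.16, edgeR adjusted p = 0.000177), lower in OHC-like than in IHC-like cells (-2.37 ± 0.23, adjusted p = 4.97e-05), and higher in the supporting epithelium than in other cells (2.70 ± 0.41, adjusted p = 0.0101). *Hes6* ran the other way in the first 2 comparisons (1.28 ± 0.29, edgeR adjusted p = 0.0108, and 1.42 ± 0.30, adjusted p = 0.00513) and was lower in the organ of Corti supporting cells than in ISC/HeC/OSC-like cells (-1.69 ± 0.41, adjusted p = 0.00024). Its highest mean was in B cell-like cells, at 230, 87.0 and 82.1 CPM. *Nrarp*, a feedback inhibitor of the pathway, reached 23.8, 43.3 and 27.6 CPM in Aqp4-led cells. *Hes5* stayed at 3.20 to 8.61 CPM in its highest class, and *Hes2* and *Hes3* had no UMI in any class.

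The cleavage and nuclear machinery was found in most classes. All 13 genes were tested between hair cells and organ of Corti supporting cells: 5 were lower in hair cells, where 25.1% of all genes tested were lower (*Adam10*, *Adam17*, *Aph1a*, *Maml3* and *Psenen*, from -0.56 to -1.27), and 2 were higher, where 21.1% were higher (*Maml1*, 0.96, and *Maml2*, 0.68). The list median was -0.33, against -0.03 for all genes tested. Between OHC-like and IHC-like cells 3 were higher (*Maml1*, *Maml2* and *Psenen*) and 4 lower (*Adam10*, *Adam17*, *Aph1b* and *Ncstn*), where 16.8% and 17.1% of all genes were. In DC/PC-like against IPhC/IB-like cells *Aph1b* (1.01) and *Psenen* (0.53) were higher and *Maml2* (-1.89) lower, where 8.66% and 8.28% of all genes tested were. *Adam10* was higher (0.69) and *Psenen* lower (-0.32) in organ of Corti supporting cells than in ISC/HeC/OSC-like cells, where 15.2% and 15.7% of all genes tested were. Of the 13, *Rbpj* alone was called in the supporting epithelium against other cells (-0.72 ± 0.15, edgeR adjusted p = 0.0247). Of all genes tested 16.8% were lower there and 10.2% higher. *Rbpj* encodes the DNA-binding partner of the cleaved receptor, and its highest mean was in macrophage-like cells, at 262, 174 and 225 CPM. The highest levels of the list were those of *Adam10* in SC/SGC-like cells (417 and 396 CPM), *Psenen* in Aqp4-led cells (288, 267 and 205 CPM), *Rbpj*, and *Ncstn* in RM-like cells (152, 97.5 and 107 CPM).

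Of the 13 regulators of endocytosis and turnover, *Neurl1a* (4.93 ± 0.62, edgeR adjusted p = 0.00103), a ubiquitin ligase gene, and *Numb* (0.70 ± 0.19, adjusted p = 0.0196), whose product opposes Notch, were higher in hair cells than in organ of Corti supporting cells, 2 of 11 tested, where 21.1% of all genes tested were higher. Both were also higher in OHC-like than in IHC-like cells (2.14 and 1.20), and *Dtx3* was lower (-1.01), where 16.8% and 17.1% of all genes tested were. *Fbxw7* (0.85) and *Mib1* (0.42) were higher and *Dtx3* (-0.64) lower in organ of Corti supporting cells than in ISC/HeC/OSC-like cells, where 15.2% and 15.7% of all genes tested were. *Dtx1*, *Dtx3* and *Numbl* were lower in the supporting epithelium than in other cells, where 16.8% of all genes tested were lower. The highest levels were those of *Fbxw7* (251 and 239 CPM) and *Mib1* (172 and 180 CPM) in SGN-like cells, *Itch* in RM-like cells (200, 164 and 136 CPM) and *Dtx3* in fibroblast-like cells (168 and 135 CPM).

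Of the other supporting cell factors, 7 of 9 tested were lower in hair cells than in organ of Corti supporting cells. Of all genes tested 25.1% were lower there, and the list median was -1.94. Among the 7 factors, *Sox9* had a log2 fold change of -2.67 ± 0.44 (edgeR adjusted p = 0.00267) and *Sox21* of -2.54 ± 0.26 (adjusted p = 0.000444). In OHC-like against IHC-like cells 5 were lower, where 17.1% of all genes tested were lower. *Isl1* was higher in OHC-like cells (1.89 ± 0.16, edgeR adjusted p = 1.82e-05), where 16.8% were higher. In DC/PC-like against IPhC/IB-like cells 6 of the list were lower, where 8.28% of all genes tested were lower. The 6 included *Id3* (-2.39 ± 0.19, edgeR adjusted p = 1.39e-32). In organ of Corti supporting cells against ISC/HeC/OSC-like cells *Sox21* (0.80) and *Sox9* (0.35) were higher, where 15.2% of all genes tested were higher. *Cdkn1b*, *Eya1*, *Id3* and *Isl1* were lower, where 15.7% were lower. In the supporting epithelium *Id1*, *Isl1*, *Sox21* and *Sox9* were higher than in other cells, where 10.2% of all genes tested were higher. The highest levels were those of *Id3* (1278 and 1071 CPM) and *Sox9* (898 and 823 CPM) in fibrocyte-like cells, *Id2* in TBC-like cells (806 and 993 CPM) and *Cdkn1b* in Aqp4-led cells (1122, 418 and 495 CPM).

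Likeness was measured as Pearson's r of log2(CPM + 10) over 57 sums of class and library, against 10636 genes that reached 50 CPM in a sum. The sums share libraries and depth, so these values are a description. *Jag1* was most like *Otogl* (0.889), *Slitrk6* (0.877) and *Sox2* (0.875), and *Sox2* most like *Jag1*, *Otog* (0.852) and *Gm49890* (0.852). *Otogl* was among the markers that named IPhC/IB-like cells. *Otog* and *Otogl* encode proteins of the extracellular membranes over the sensory epithelium. *Lfng* was most like *Adam8* (0.835), *Dgkb* (0.829) and *Cpa6* (0.827), and *Hes1* most like *Smim3* (0.719), *Heyl* (0.709) and *Bzw1* (0.701). *Hey1* was most like *Agr3* (0.868), *Masp1* (0.850) and *Crhr1* (0.848), and *Hey2* most like *Masp1* (0.850), *Sox2* (0.819) and *Pcdh17* (0.818). *Notch1* was most like *Manba* (0.829), *Tmem51* (0.820) and *Vamp8* (0.803), *Notch2* most like *B2m* (0.790), *Tmem176b* (0.777) and *Tmem176a* (0.776), and *Notch3* most like *Pakap* (0.756), *Shisal2b* (0.745) and *Alox12e* (0.739). *Prox1* was most like *Rims4* (0.868), *Dync1i1* (0.862) and *Rbfox1* (0.843), genes high in neurons.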

How the data were processed

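The authors deposited raw UMI counts per gene and barcode for 3 libraries, made with 10x Chromium 3′ chemistry and Cell Ranger (6.0.1 in the submitters' processing notes, 5.0.1 in the file headers) on mm10. Everything else was computed here. Symbols matched 1 gene each. Cells were clustered in Seurat 5.3.0 (R 4.3.3), at P14 alone and at P28 with both libraries integrated by anchors. The 63 listed genes were kept out of the 2000 variable genes, 30 components entered, and the resolution was 1. A name needed 3 markers of a type at a log2 ratio of 1 over the median cluster (CPM + 10) and a UMI in 5% of cells. The doublet caller of scanpy 1.11.5 marked 1 barcode per library and was not used; leaving out the top 5% of scores was an alternative. UMIs were summed per class and library and tested in edgeR 4.0.16 (quasi-likelihood, TMM, filterByExpr, Benjamini-Hochberg over all genes tested, threshold 0.05) with the library as a block. Both sides of a comparison come from the same pool of mice, so the libraries pair the sums; their deviations correlated by 0.14 to 0.52. Pools are the replicates. With 3 pools, p-values weigh a gene's spread between pools against that of all genes; with 2 pools they rest on the spread of all genes together. Tests were checked on simulated data. The members and lists were chosen with earlier results of these data known. All 10 members are named; of the other lists, the 4 genes with the largest CPM and any gene called where at most 5 of a list were, except 1 gene that is not reported here. Alternatives were other cell filters, a resolution of 2, no block, DESeq2 1.42.0, 2 filters on low counts, another scaling and each library left out. Promoter windows were matched by symbol.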

Additional observations from a re-analysis of the deposited data

Results flagged for a closer look

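Between the supporting epithelium and other nonhair cells, 4 genes differed in sign at P14 from both P28 libraries. For *Hey1*, *Notch1* and *Notch3* the P14 difference was within counting error. The difference between the ages was not tested, and the share of all genes that differed in this way was not computed. The level in the supporting epithelium minus that in other cells was, for *Prox1*, 44.9 CPM at P14 against -31.6 and -37.3 CPM at P28. It was -1.33 CPM against 48.1 and 42.2 CPM for *Hey1*, -0.167 CPM against 74.5 and 76.8 CPM for *Notch1*, and -4.27 CPM against 0.826 and 4.77 CPM for *Notch3*. At P14 Aqp4-led and Ucma-led cells, counted among the other cells, held 177 and 143 of the 334 *Hey1* UMIs of that side. They held 369 and 89 of 587 in P28 replicate 1 and 227 and 48 of 401 in P28 replicate 2. *Notch1* was at 201 and 113 CPM in these classes at P14. The P14 side held DC/PC-like cells alone, and SGN-like cells, which hold *Prox1*, were named at P28 alone, so age and the classes named cannot be told apart.

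Barcodes outside the cell filter held UMIs of the 10 genes that no comparison used, 1045 at P14 and 3536 and 4258 in the P28 libraries. For these barcodes no class was assigned.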

How the results depend on the processing

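Of the fold changes called for the 10 genes, 347 values under alternatives kept direction and call and 30 lost the call; of those not called, 81 stayed so, 18 gained a call and 5 turned direction. These 5 were in the supporting epithelium against other cells: *Notch2* at 0.26 (adjusted p = 0.325) with Aqp4-led and Ucma-led cells counted in, *Notch3* between -0.060 and 0.91 with 1 library left out (adjusted p = 0.977 without P28 replicate 2), and *Prox1* between -2.32 without P14 and 0.75 without P28 replicate 2 (0.53 without P28 replicate 1) and at 1.12 (0.0307) with at most 3000 genes and 15000 UMIs. Class means moved in 20 of 83 cases, and the leading class changed in 4, all under that limit. Alternatives of classes compared and of nucleus-like clusters were chosen after seeing the data. The cause was not tested. The numbers of genes tested under these alternatives are mostly not given below. Counts of the 10 genes there cannot be weighed against a share of all genes.

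Hair cells against organ of Corti supporting cells gave 2269 genes higher and 2697 lower. With at least 10 UMIs in every sum, which tests fewer genes, these were 1452 and 1413. Then 5 of the 10 genes rather than 9 were tested, and all 5 were lower, but the share of all genes lower under this filter is not given. With OHC-like against DC/PC-like cells alone 1744 were lower. With 1 library left out they ranged from 1177 to 3464 and from 1354 to 3320.

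OHC-like against IHC-like cells gave 1592 higher and 1620 lower. Without the replicate block these were 780 and 920, and with 10 UMIs 867 and 812. Each of the 10 genes was under 10 UMIs in a sum there, so none was tested. At most 3000 genes gave 455 and 445 and 1 of the 10 genes, while DESeq2 called 906 higher. With 1 library left out they ranged from 683 to 2349 and from 830 to 2557.

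DC/PC-like against IPhC/IB-like cells gave 677 higher and 648 lower, with 3 and 4 of the 10 genes. DESeq2 gave 169 and 108, with 1 and 2. With 10 UMIs these were 367 and 309, with 2 lower, as *Lfng* and *Notch1* fell short of 10 UMIs in a sum and were not tested. *Prox1*, on 20 and 7 UMIs against 3 and 1, was not tested under this filter either. A resolution of 2 gave 50 and 21, with 1 and 0, and 30% mitochondrial UMIs gave 43 and 11, with 0 and 0. Under both, a P14 cluster named IPhC/IB-like entered, as given above. Against ISC/HeC/OSC-like cells, 1416 and 1463 became 402 and 338 with DESeq2, with 0 of the 10 genes lower rather than 2. With 30% mitochondrial UMIs 4 of the 10 genes were lower. The share of all genes lower there is not given, so this count cannot be weighed. With 2 libraries none could be left out, and at most 3000 genes left no ISC/HeC/OSC-like class.

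The supporting epithelium against other cells gave 1298 higher and 2144 lower, with 5 and 0 of the 10 genes. Without the replicate block these were 773 and 1428, and with 10 UMIs 614 and 398. Counting Aqp4-led and Ucma-led cells in gave 2823 higher, with 8 of the 10 genes, and at most 3000 genes gave 1949, with 9 higher and 1 lower. The count of all genes lower under that limit is not given. With 1 library left out all genes higher ranged from 157 to 3749 and all genes lower from 284 to 4740. The 10 genes ranged from 3 to 8 higher and from 0 to 1 lower. The block changed the calls of *Hey1* in OHC-like against IHC-like cells and of *Hes1* here (adjusted p = 0.0574 without it) and no other call of the 10 genes. Of the pairs of gene and class, 13 lower and 6 higher at P14 became 5 lower with at most 3000 genes, which kept 1 of the 13 (80 of the 100 pairs had cells), 22 and 13 with 30% mitochondrial UMIs and 13 higher with a resolution of 2, and no pair turned direction. The shares of all genes at each age were not computed under these alternatives. Counts were too low to test *Notch3* in 4 of the 5 comparisons.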
